A study of Caenorhabditis elegans with 4 samples.

Results

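The regions described here are the peaks of chromosome IV that lie outside its piRNA clusters, in ChIP-seq of adult Caenorhabditis elegans. They were chosen by position alone. From the authors' peak list for the whole series, a peak on IV was kept when its midpoint lay below 4500000, above 7000000 and below 13500000, or above 17200000 (WormBase WS220 coordinates, per the file headers). The rule kept 1156 of the 1727 peaks on IV, out of 9212 peaks on nuclear chromosomes and 9214 in all. These 1156 peaks, called the non-cluster peaks, fall into 3 intervals, with 565 in the left interval (4.5 Mb), 573 in the middle interval (6.5 Mb) and 18 in the right interval (0.294 Mb). The other 571 peaks of IV lie in the 2 cluster intervals (6.2 Mb together). No piRNA gene was located here, so the clusters are those of the stated boundaries.

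The series holds 4 samples, 2 ChIP samples and 2 inputs. All share the genotype fem-2(b245), a lesion in a protein phosphatase gene that acts in sex determination, and are labelled as hermaphrodite young adults with a germline, kept at 20 degrees Celsius. The chromatin came from whole animals, so peaks of different tissues are superimposed. The sample titles name KLE-2 as the target, while the antibody record of the same samples names CEC-1. Each ChIP replicate has its own deposited peak list, and the third list was deposited for the series; the inputs have no peak list. Whether the replicates came from separate cultures is not stated.

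KLE-2 is a subunit of condensin II, a ring-shaped complex of SMC ATPases and accessory subunits that compacts chromosomes for mitosis and meiosis and also occupies chromatin in interphase. CEC-1 is a chromodomain protein, a class of proteins that read methylated histone tails. Chromosome IV carries most of the worm's piRNA genes, short germline transcription units packed into a pair of broad clusters, and the remainder of the chromosome holds ordinary genes. The autosomes of the worm have repeat-rich arms on either side of a gene-rich centre. The left interval is mostly left arm and the middle interval mostly centre. Gene names and sequences were not assigned to the peaks, because the gene table used here is of another genome build.

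The non-cluster peaks were nearly as dense as peaks of the other autosomes, but the left and middle intervals had unlike densities in the whole-series list. The 3 intervals together held 102 peaks per Mb (exact 95% Poisson interval 96.5 to 108), the cluster intervals of IV 92.1 (84.7 to 100) and the other autosomes 104 (102 to 107). The left interval had 126 peaks per Mb (115 to 136), the middle interval 88.2 (81.1 to 95.7) and the right interval 61.3 (36.3 to 96.9). In the replicate lists the left and middle values lay within each other's intervals. ChIP replicate 1 had 13.3 peaks per Mb (10.2 to 17.2) in the left interval and 14.3 (11.6 to 17.5) in the middle. ChIP replicate 2 had 72.2 (64.6 to 80.5) in the left interval and 68.9 (62.7 to 75.6) in the middle. Peaks lie side by side and are not replicates of a condition, so these intervals cover counting error only, and with 2 replicates no test of any difference between intervals was made.

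The 1156 peaks covered 0.506 Mb, or 4.48% of their intervals, against 4.4% in the cluster intervals and 4.76% on the other autosomes. Their median width was 332 bp (interquartile range 217 to 498 bp), against 319 bp in the cluster intervals and 332 bp on the other autosomes. The score is the authors' value for each peak, on a scale that is not stated, and is used here only within one list. The median whole-series score of the non-cluster peaks was 9.4 (4.72 to 33.3), against 8.3 in the cluster intervals and 10.3 on the other autosomes. With all peaks of an interval counted, the left medians of score and width were below the middle ones. The left peaks had a score of 8.3 (4.32 to 24.5) and a width of 307 bp (211 to 456 bp). The middle peaks had a score of 11.6 (5.11 to 41.5) and a width of 354 bp (236 to 527 bp). This order did not hold for the peaks found in both replicates, described below. Score and width went together among the 1156 peaks (Spearman's rho = 0.69), a relation across peaks of one list that share one set of reads.

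In windows of 500 kb the whole-series counts ranged from 31 to 86 over the 9 windows of the left interval (median 62) and from 26 to 78 over the 13 windows of the middle interval (median 37). The fullest window lay on the left, from 500001 to 1000000, with 86 whole-series peaks, of which 55 had no replicate peak. It held only 4 replicate 1 peaks and 29 replicate 2 peaks. The next, from 2500001 to 3000000, had 84, with 10 peaks of replicate 1 and 49 of replicate 2. In the middle interval the windows from 11000001 to 11500000 and from 13000001 to 13500000 each had 78 whole-series peaks, with 12 and 14 replicate 1 peaks and 50 and 51 replicate 2 peaks. The emptiest full-length windows of the whole-series list were neighbours, from 10000001 to 10500000 and from 10500001 to 11000000, directly before one of the fullest. Each had 26 whole-series and 4 replicate 1 peaks. They held 32 and 20 replicate 2 peaks, against a median of 34 over the middle windows. The window from 10000001 to 10500000 was also the one window with no peak outside both replicates. Across the 13 middle windows the whole-series count followed the replicate 2 count (rho = 0.81, Pearson's r = 0.89), and across the 9 left windows less closely (rho = 0.43, r = 0.51). These are descriptions over few windows of lists that may share reads. The replicates followed each other in both intervals, with rho = 0.81 on the left and 0.62 in the middle.

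**Figure D1:**
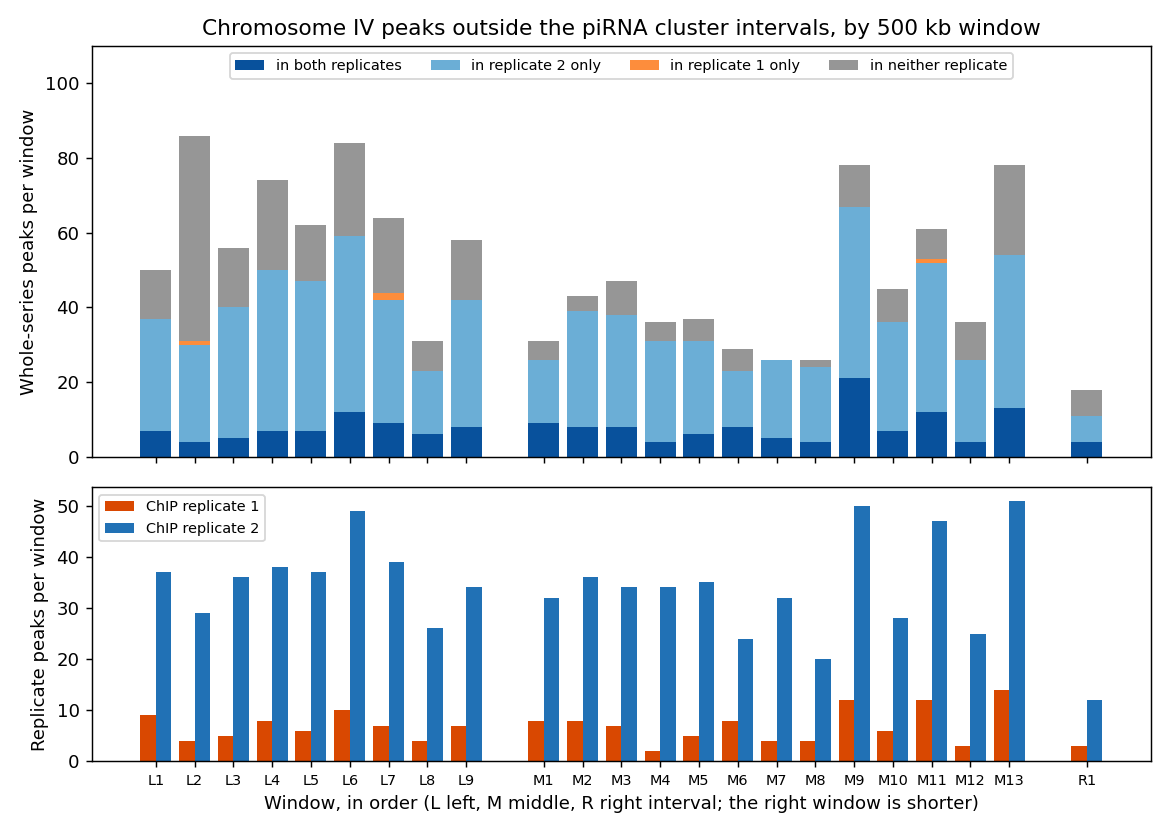
Peaks per 500 kb window in chromosome order, with whole-series peaks above, split by the replicate lists that overlap them, and the peaks of each replicate list below. The left window L2 has 86 whole-series peaks, 55 of them in neither replicate, while windows M9 and M13 of the middle interval have 78 each and the highest replicate 2 counts (50 and 51).

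Most non-cluster peaks were found in replicate 2 and few in replicate 1, as in the whole list. A peak counts as found when a replicate peak shares at least 1 bp with it. Of the 1156 peaks, 178 (15.4%, exact Clopper-Pearson 95% interval 13.4 to 17.6%) were overlapped by both replicates, against 14.3% of all nuclear peaks. Another 676 (58.5%, 55.6 to 61.3%) were overlapped by replicate 2 only, against 61.0% of all nuclear peaks, and 298 (25.8%, 23.3 to 28.4%) by neither, against 23.2%. Only 4 (0.346%, 0.0944 to 0.884%) were overlapped by replicate 1 only, against 1.49% of all nuclear peaks. On the other autosomes it was 110 of 6773 (1.62%, 1.34 to 1.95%). In the cluster intervals it was 6 of 571 (1.05%, 0.387 to 2.27%), with 1 of 322 in the right one. Counting each replicate by itself, replicate 1 overlapped 182 of the 1156 (background 15.8%) and replicate 2 overlapped 854 (background 75.3%).

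The whole-series scores followed these classes. Peaks in both replicates had a median score of 79.3 (interquartile range 21.7 to 151) and a median width of 685 bp. Peaks in replicate 2 only had 13.1 (6.06 to 32.8) and 335 bp, and peaks in neither 4.32 (3.21 to 6.36) and 227 bp. The ranges of the classes overlapped, since some peaks in both replicates scored below 10. Among the 239 peaks of 200 bp or narrower, 119 (49.8%, background 42.6%) were in neither replicate and 11 (4.6%, background 3.95%) in both. Among the 25 peaks wider than 1600 bp, 3 were in neither (12%, background 15.5%) and 20 in both (80%, background 67.7%), so the pattern resembled that of the whole list. The narrowest width in the whole-series list was 146 bp, and 19 of the non-cluster peaks had exactly that width (1.64%, background 1.66%), 14 of them in neither replicate (73.7%, background 49.7%). A wider peak can share a base with a replicate peak more easily, and peaks were not matched on width.

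**Figure D2:**
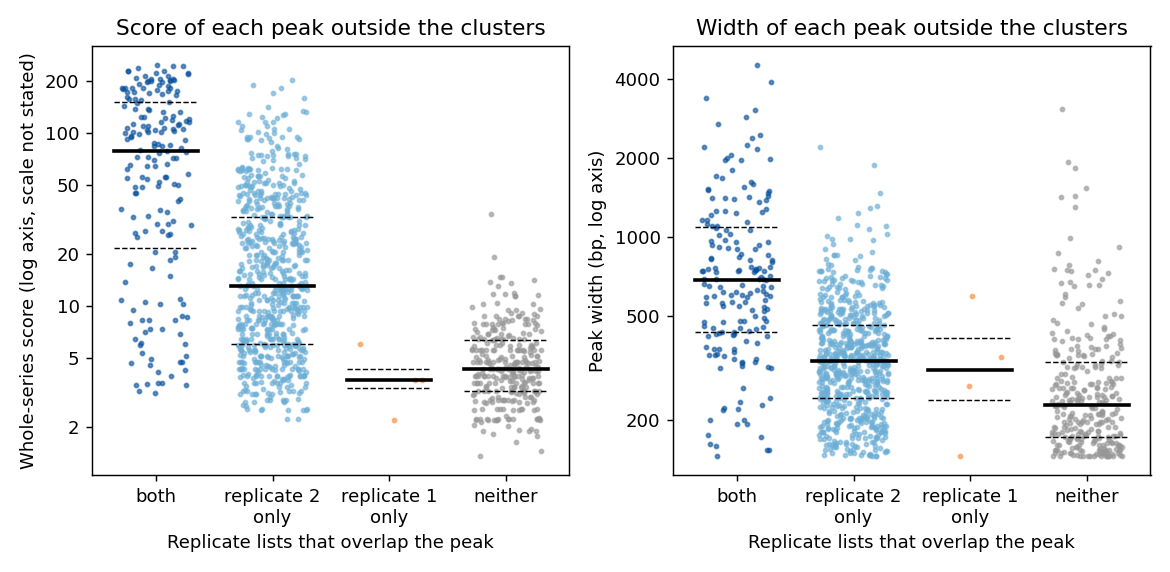
Whole-series score (left, log axis) and width in bp (right, log axis) of each of the 1156 non-cluster peaks, grouped by the replicate lists that overlap it; solid lines are medians and dashed lines quartiles. Median scores are 79.3 for both, 13.1 for replicate 2 only and 4.32 for neither, and 4 peaks are in replicate 1 only.

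The left and middle intervals had unlike shares of peaks without replicate support. In the left interval 192 of 565 peaks (34.0%, 30.1 to 38.1%) were in neither replicate, and in the middle interval 99 of 573 (17.3%, 14.3 to 20.6%). Both replicates overlapped 65 left peaks (11.5%, 8.99 to 14.4%) and 109 middle peaks (19%, 15.9 to 22.5%), against 14.3% of all nuclear peaks. The left peaks in both replicates had a median score of 101 (interquartile range 34.8 to 168) and width of 744 bp. The middle ones had 72.1 (20.4 to 133) and 656 bp. Peaks in replicate 2 only had medians of 13.1 and 332 bp on the left and 12.9 and 338 bp in the middle. Peaks in neither had 4.32 and 225.5 bp on the left and 4.4 and 241 bp in the middle. No difference within a class was tested. Per Mb, the peaks in both replicates numbered 14.4 on the left and 16.8 in the middle, while those in neither numbered 42.7 and 15.2. The higher left density in the whole-series list was thus largely a matter of peaks in neither replicate. With those peaks left out, a step chosen after the values were seen, the densities were 82.9 per Mb (74.7 to 91.7) on the left and 72.9 (66.5 to 79.8) in the middle.

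All nuclear whole-series peaks were split into 4 score groups of 2303 each, and the left density exceeded the middle one most in the lower groups. In the highest group (scores from 33.2) the left interval had 26.2 peaks per Mb, the middle interval 25.9, the cluster intervals 22.3 and the other autosomes 27.5. In the lowest group (scores up to 4.92) the same densities were 38.7, 20.6, 27.3 and 25. In the second group the left interval had 31.6 peaks per Mb and the middle 19.7, and in the third group (scores from 9.81 to 33.1) 29.1 and 22. Within the lowest and the second group, left and middle peaks were also overlapped by the replicates at unlike rates. Peaks were not matched on score or width inside a group. In the lowest group 117 of 174 left peaks (67.2%, 59.7 to 74.2%) were in neither replicate, and 61 of 134 middle peaks (45.5%, 36.9 to 54.4%). In the second group it was 66 of 142 left peaks (46.5%, 38.1 to 55.0%) and 29 of 128 middle peaks (22.7%, 15.7 to 30.9%). In the third group the shares were 6.11% on the left and 6.29% in the middle. In the highest group 1 of 118 left peaks and 0 of 168 middle peaks lacked a replicate peak, and both replicates overlapped 41.5% on the left and 41.7% in the middle. Among the other autosomes the shares in neither were 48.0%, 31.4%, 6.84% and 0.056% from the lowest to the highest group. For the cluster intervals they were 58.6%, 48.6%, 9.68% and 1.45% in the same order.

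**Figure D3:**
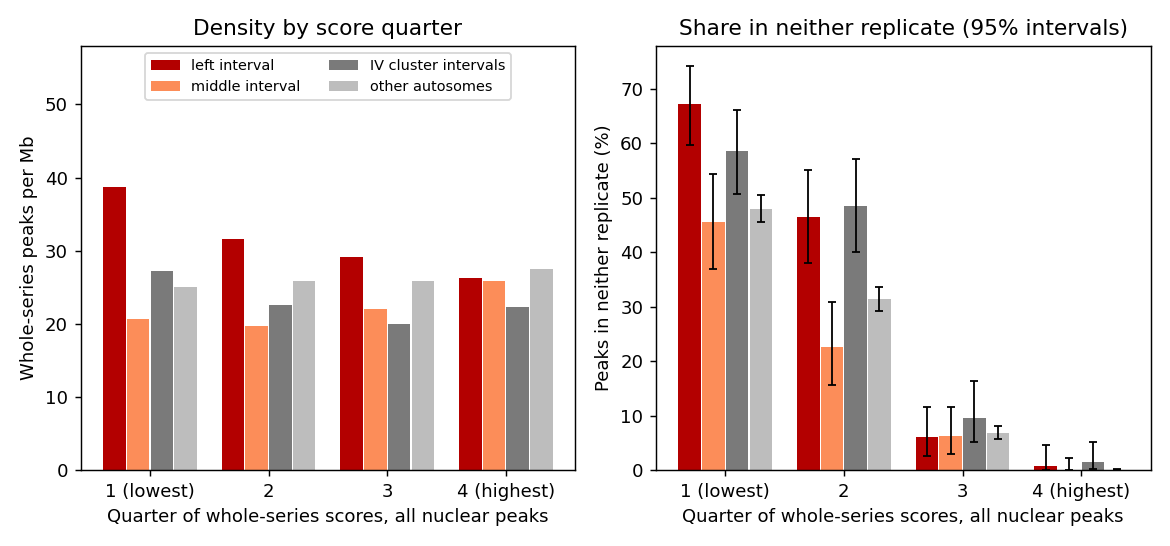
Density of whole-series peaks per Mb (left) and share in neither replicate in % (right, bars with exact 95% intervals) in 4 score groups of all nuclear peaks, for the left and middle intervals, the cluster intervals of IV and the other autosomes. The left interval stands at 38.7 peaks per Mb in the lowest group and 26.2 in the highest, the middle interval at 20.6 and 25.9.

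The 10% of nuclear whole-series peaks with the highest scores (86.4 or more) included 118 non-cluster peaks (10.2%, 8.52 to 12.1%, background 10.0%). They numbered 10.0 per Mb in the left interval, 10.8 in the middle and 10.2 in the right, against 11.6 in the cluster intervals and 10.9 on the other autosomes. At the top of the list the non-cluster peaks took 4 of the 10 highest ranks and 10 of the 50 highest, and 63 of the 500 highest (12.6%), while they make up 12.5% of the nuclear list.

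Neighbouring non-cluster peaks were often close together. Of the 1153 gaps inside the intervals, 473 (41.0%, 38.2 to 43.9%) were under 2000 bp, against 40.2% in the whole list. The share was 46.5% (42.3 to 50.7%) on the left, where the median gap was 2521 bp, and 36% (32.1 to 40.1%) in the middle, where it was 4664 bp. In the cluster intervals the share was 47.6% (43.5 to 51.8%) and the median gap 2289 bp, near the left values. On the other autosomes they were 41.0% and 3190 bp. In the replicate lists the close gaps were fewer, with 13 of 153 (8.5%) in replicate 1 and 229 of 782 (29.3%) in replicate 2. In replicate 2 the left and middle shares were 30.9% (25.9 to 36.2%) and 27.7% (23.6 to 32.1%). Gaps of over 50 kb numbered 30. The longest ran from 10553507 to 10658264 in the middle interval (105 kb) and held no replicate 1 and 3 replicate 2 peaks. The next were 96.2 kb from 12932768 to 13028927 and, on the left, 94.3 kb from 3404256 to 3498527.

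Part of the close spacing lay in unbroken runs, in which every gap was under 2000 bp. Those of 5 or more peaks held 153 non-cluster peaks (13.2%, 11.3 to 15.3%, background 15.2%) in 22 runs. Of these, 14 runs with 110 peaks lay on the left (19.5% of the left peaks, 16.3 to 23.0%) and 8 runs with 43 peaks in the middle (7.5%, 5.48 to 9.98%). The cluster intervals had 17 such runs with 148 peaks (25.9% of their peaks, 22.4 to 29.7%). Over these 153 peaks 57 (37.3%) were in neither replicate, against 38.1% of all nuclear peaks in such runs. In the left runs it was 50 of the 110 peaks, and in the middle runs 7 of the 43. Runs of at least 10 peaks numbered 2, both on the left, with 39 peaks (3.37%, background 4.37%), against 4 runs with 71 peaks (12.4%) in the cluster intervals. All 4 lay in the left cluster interval, where they held 28.5% of its peaks, and the right cluster interval had none.

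The 2 long runs differed in replicate support. The run from 890791 to 913213 had 26 peaks of 149 to 1294 bp over 22.4 kb, with scores of 1.44 to 11.7 (median 4.54) and a median gap of 417 bp. No peak of either replicate fell within it, and the nearest lay 5509 bp away in replicate 2 and 77598 bp away in replicate 1. This run made up 26 of the 86 peaks of the fullest window. The run from 4176393 to 4190025 had 13 peaks over 13.6 kb with a median score of 4.72, but one of them, from 4184423 to 4185348, scored 229.8 and was in both replicates (score 473 in replicate 1 and 3100 in replicate 2). Of its other peaks, 1 was in both replicates, 5 in replicate 2 only and 6 in neither. Smaller runs with no replicate peak lay from 688923 to 692945 (6 peaks, scores 2.24 to 7.93) and from 3206335 to 3209467 (5 peaks, scores 4.71 to 10.2). Runs that the replicates did contain included the one from 2776700 to 2785375, where 9 peaks had scores of 3.48 to 113, 3 of them in both replicates and 5 in replicate 2 only. In the middle interval the run from 11371645 to 11377577 had 7 peaks, all in replicate 2 only.

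**Figure D4:**
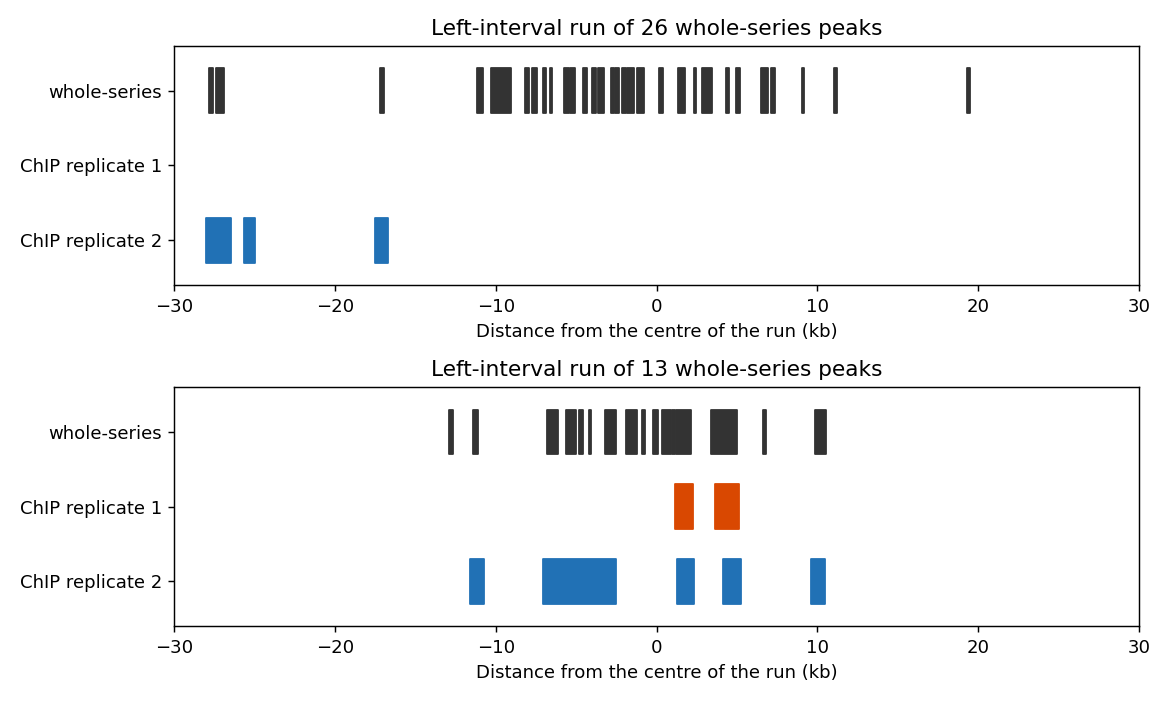
Peaks of the 3 lists within 30 kb of the centre of the 2 long left-interval runs (x axis, distance from the run's centre in kb; each bar is one peak). The run of 26 whole-series peaks has no replicate peak inside it, whereas the run of 13 has peaks of both replicates.

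Excluding runs left the contrast between left and middle in part. Without runs of at least 5 peaks, an exclusion chosen after the values were seen, the left interval had 101 peaks per Mb (92.0 to 111) and the middle 81.5 (74.7 to 88.8). The share in neither replicate was then 31.2% (27.0 to 35.7%) on the left and 17.4% (14.2 to 20.9%) in the middle. In the lowest score group it was 65.0% (56.4 to 72.9%) on the left and 48.7% (39.4 to 58.1%) in the middle with the runs left out, and these intervals overlap, unlike those with the runs kept. In the second group it was 42.3% (33.0 to 52.1%) on the left and 22.8% (15.5 to 31.6%) in the middle, and these intervals stayed apart. Of the 298 non-cluster peaks in neither replicate, 241 were in no such run. Their median distance to the nearest peak of either replicate, runs included, was 6370 bp (2059 to 11700 bp), and 49 (16.4%) lay within 1000 bp of one.

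The strongest non-cluster sites were spread over the left and middle intervals. The highest score belonged to the peak from 9196014 to 9196672 in the middle interval, with a whole-series score of 246 (rank 2 of 9212), a replicate 1 score of 2000 and a replicate 2 score of 3100. Scores of 3100 or more are common in the replicate 2 list (16.2% of its peaks) and less so in the replicate 1 list (3.90%). Peaks at exactly 3100 cannot be ranked among themselves. The peak from 4388791 to 4390957 on the left followed with 246 (rank 3), 1742 in replicate 1 and 3100 in replicate 2. It was broader, at 2167 bp against 659 bp. The peak from 12404027 to 12404718 had nearly the same whole-series score (246, rank 4) and 3100 in replicate 2, but only 400 in replicate 1. All 10 highest-scored peaks found in both replicates reached 3100 in replicate 2, whereas their replicate 1 scores ran from 292.5 to 3202. The lowest of these belonged to the left peak from 1475751 to 1477743 (whole-series score 224) and the highest to the middle peak from 11399651 to 11401609 (228). Replicate 1 reached 3100 or more at 2 of these 10 sites. The other peaks among these 10 lay from 12021952 to 12025833, from 4184423 to 4185348, from 3312975 to 3314396, from 9410121 to 9412080 and from 8072351 to 8074394. Over the non-cluster peaks that replicate 1 overlapped, the whole-series score and the replicate 1 score had rho = 0.39 (182 peaks), and over those that replicate 2 overlapped it was 0.57 (854 peaks). On the other autosomes the same values were 0.18 and 0.61. Several peaks can lie on one replicate peak and then share its score.

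Peaks of 2000 bp or more numbered 14 (1.21%, background 1.52%), of which 5 lay on the left, 8 in the middle and 1 on the right. The widest, from 8466857 to 8471353 (4497 bp, score 183), was also broad in the replicates, at 4738 bp in replicate 1 and 4638 bp in replicate 2, with 3100 in both. The second, from 12021952 to 12025833 (3882 bp, score 238), likewise had 3100 in both. The third, from 17278068 to 17281431 (3364 bp, score 102), had 3100 in both and lay in the right interval. The fourth was unlike them. It lay from 11072709 to 11075771 (3063 bp, score 14.1) and no replicate peak overlapped it, the nearest being 4880 bp away in replicate 2 and 6896 bp away in replicate 1. The fifth, from 3384120 to 3387157 (3038 bp, score 84.7), had 1738 in replicate 1 and 3100 in replicate 2.

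The strongest peaks without any replicate support were modest. The peak from 3211997 to 3212221 scored 34.1 and lay 912 bp from a replicate 2 peak. It was the one non-cluster peak of the highest score group in neither replicate. The next, from 12314421 to 12315067, scored 19.1 and lay more than 15 kb from a peak of either replicate (15322 bp in replicate 1 and 15737 bp in replicate 2). The others scored between 14.1 and 14.7. The 4 peaks in replicate 1 only were weak in the whole-series list. They lay from 702487 to 703082 (score 6.04), from 3317584 to 3317853 and from 3317959 to 3318306 (3.75 each, on one replicate 1 peak of 1137 bp), and from 12410335 to 12410480 (2.18). The replicate 1 scores were 51.9, 53.6 and, at the last, 482. The replicate 1 peak at the last is 2128 bp wide and also overlaps the whole-series peak from 12408496 to 12409117, which replicate 2 contained as well (replicate 2 score 1437).

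The right interval is short and its 18 peaks reach the end of the chromosome. Of these, 4 were in both replicates, 7 in replicate 2 only and 7 in neither. The highest, from 17249582 to 17250227, had scores of 203 (whole-series), 381 (replicate 1) and 3100 (replicate 2). The peak from 17461274 to 17461609 scored 98.9 and was in replicate 2 only (2640). The last 2 peaks of the chromosome, from 17492838 to 17492998 and from 17493436 to 17493632, scored 1.89 and 8.29 and were in neither. The peaks next to the boundaries of the rule were as follows. The last left peak (4471385 to 4471746) scored 6 and the first peak past it 2.78. The first middle peak (7012793 to 7013008) scored 4.72 and the last peak before it 20.2. The last middle peak (13478430 to 13478820) scored 13.1, and the next (43.6) straddled the boundary with its midpoint just beyond it. The first right peak (17214375 to 17214544) scored 3.94 and the last before it 3.21.

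Seen from the replicate lists, 156 replicate 1 peaks and 785 replicate 2 peaks had their midpoints in the 3 intervals. Of the replicate 1 peaks 144 (92.3%, 87.0 to 96.0%, background 90.8%) lay on a replicate 2 peak and 143 (91.7%, 86.2 to 95.5%, background 93.7%) on a whole-series peak. Of the replicate 2 peaks 142 (18.1%, 15.5 to 21%, background 16.3%) lay on a replicate 1 peak and 661 (84.2%, 81.5 to 86.7%, background 85.8%) on a whole-series peak. With replicate 2 limited to its 1178 highest-scored peaks, as many as replicate 1 has, 65.4% of the 156 replicate 1 peaks (57.4 to 72.8%) were overlapped. The 124 replicate 2 peaks without a whole-series peak were weak in their own list, with a median replicate 2 score of 81.6 against 778 for the others. Whole-series peaks subdivided the replicate peaks, since 142 replicate 2 peaks (18.1%, background 16.0%) and 33 replicate 1 peaks (21.2%, background 22.8%) each held at least 2. Of the 854 non-cluster peaks that replicate 2 overlapped, 831 (97.3%) lay wholly inside the replicate 2 peak, with midpoints 116 bp apart at the median.

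Replicate 2 reached 3100 or more at 132 of its 785 peaks in the intervals (16.8%, 14.3 to 19.6%, background 16.2%), and replicate 1 at 9 of 156 (5.77%, 2.67 to 10.7%, background 3.90%). All 9 lay on a replicate 2 peak, as did all 46 such peaks of the whole replicate 1 list. Of the 132 strong replicate 2 peaks, 37 (28.0%, 20.6 to 36.5%) had no replicate 1 peak, 16 on the left and 21 in the middle. The background was 353 of 1040 (33.9%). It was 292 of 799 (36.5%, 33.2 to 40.0%) on the other autosomes and 21 of 77 (27.3%, 17.7 to 38.6%) in the cluster intervals. The highest of the 37 lay from 1274291 to 1275207 (replicate 2 score 3197, whole-series score 74.5). Other such sites were from 378261 to 380411, from 519012 to 520072, from 853977 to 855397 and from 873967 to 875500, each with 3100 in replicate 2 and with whole-series scores of 74.0 to 183. All 132 lay on a whole-series peak, as did all 1040 such peaks of the whole replicate 2 list.

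Of the 156 replicate 1 peaks in the intervals, 12 had no replicate 2 peak, and 10 of these had no whole-series peak either. Over the whole replicate 1 list, 108 of 1178 peaks had no replicate 2 peak, 50 of them without a whole-series peak. Scores of the 12 were low, with a median of 62.5 and a maximum of 140. The 5 highest lay from 12287479 to 12289129 (140), from 2820743 to 2823164 (111), from 13138401 to 13139337 (106), from 11919389 to 11920394 (101) and from 302920 to 303943 (68.0). On the other autosomes 80 of 885 replicate 1 peaks had no replicate 2 peak, 31 of them without a whole-series peak, and their scores reached 1476. In the cluster intervals it was 5 of 75, 2 of them without a whole-series peak, with scores up to 278. These sets differ in size, so their maxima are not on an equal footing.

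Set against the pooled cluster intervals of the same chromosome, the non-cluster peaks found in both replicates were weaker and narrower at the median. The median score of 79.3 compares with 135 (interquartile range 83.5 to 183) in the cluster intervals and 77.3 on the other autosomes. The width of 685 bp compares with 930 bp in the cluster intervals and 652 bp on the other autosomes. Taken singly, the 2 cluster intervals differed in width. The left one had a median of 592 bp (24 peaks, median score 123), narrower than the non-cluster peaks. The right one had 1132 bp (51 peaks, median score 146.5). In replicate 1 itself the 156 peaks of the non-cluster intervals had a median score of 145 and a median width of 1198 bp, against 289 and 1482 bp for the 75 peaks of the cluster intervals and 144 and 1199 bp on the other autosomes. In replicate 2 the medians were 501 and 1023 bp, against 516 and 1022 bp in the cluster intervals and 489 and 1020 bp on the other autosomes. These differences were not tested.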

How the data were processed

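Peak positions and scores were taken from 3 deposited lists, on WS220 per the file headers. Reads were aligned with BWA to a build called ce10, per the submitters' processing notes. The replicate lists name MACS and the whole-series list MACS v2 as caller, per the file contents. The score of each peak is the authors' value, and its scale, the threshold, the input used and any pooling of replicates are not given in the sources used here. The read depth is unknown.

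The 2 mitochondrial peaks were left out. The ends of chromosomes were taken as the highest peak end in any list. Peaks were assigned to intervals by midpoint, and the 3 lists were compared by overlap of at least 1 bp. Shares have exact Clopper-Pearson and densities exact Poisson 95% intervals (SciPy 1.17.1, pandas 2.3.3, Python 3.11.15), which cover counting error only and treat peaks as independent. Alternatives were stricter overlaps, a higher score limit, moved boundaries, other gap limits and 1 replicate at a time. The overlap and interval code was tested on simulated data. No test of significance was made, since peaks are not replicates and there are only 2 replicate lists.

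Peaks named are the 10 highest-scored in both replicates, the highest of each interval, the 5 widest, the 5 highest in neither replicate, runs of at least 10 peaks, the 3 longest gaps, the 5 highest-scored unshared peaks of each replicate (ties by position), and the fullest and emptiest windows of 500 kb. Other positions (smaller runs, the peaks in replicate 1 only, right-interval peaks and boundary peaks) were chosen after their values were seen. The non-cluster peaks and all rules were chosen with earlier results of these data known. The planned counts on gene classes were not made, because no genome or annotation of WS220 was used here.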

Additional observations from a re-analysis of the deposited data

How the results depend on the processing

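No paired analysis was possible because the inputs have no peak list here and no test compares groups. Of 33 recomputed values, 14 stayed within the 95% interval of the reported value and 19 did not. Some alternatives changed the quantity itself, as when the list was cut to 50%, the gap limit was changed or the density was taken from a replicate list. There a shift was to be foreseen, so the count is no measure of stability. The 7 recomputed values that are left minus middle differences kept their sign. With the 50% of nuclear peaks with the highest scores, the density of non-cluster peaks was 50.2 per Mb, the share in both replicates 25.8%, the share in neither 3.17%, the share of gaps under 2000 bp 22.3% and the median width 448 bp. Without peaks in neither replicate, the close gaps were 35.4%, the median score 16.8 and the median width 363 bp. Close gaps were 29.7% at 1000 bp and 57.8% at 5000 bp. Replicate 1 peaks on a replicate 2 peak were 65.4% when replicate 2 was limited to the length of replicate 1. Taking 1 replicate alone gave densities of 13.8 to 69.5 per Mb, shares of overlapped peaks of 15.7% to 73.9% and shares not overlapped of 26.1% to 84.3%. The left minus middle difference in density was 37.4 per Mb. In alternatives chosen after seeing the data it was 28.7 without runs of at least 10 peaks, 19.6 without runs of at least 5, 7.49 among the 50% with the highest scores and 9.97 without peaks in neither replicate. The difference in the share in neither was 16.7 percentage points and 0.721 among the 50% with the highest scores; it was 13.1 and 13.9 without the runs. The cause of these shifts was not tested, and the unknown read depth limits what a missing replicate peak can show.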
